A study of Homo sapiens with 6 samples.

Results

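The genes described here are named for the proteins of the mitochondrial ribosome, the mitoribosome. They were taken from the count table by symbol: MRPL followed by a number for the large subunit, and MRPS followed by a number, with or without a final A, B or C, for the small subunit. The rule found 78 genes among 26490 symbols, 49 of the large and 29 of the small subunit. All 78 passed the filter on low counts, with 184 to 3481 counts in a library.

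RNA-seq libraries of SW403, an established human colon adenocarcinoma line, formed 2 groups of 3. The control cells carried the wild-type label, and the other cells a knockdown of IRS2, which encodes an adaptor protein of the insulin and IGF1 receptors. Both groups grew in DMEM with fetal bovine serum for 24 h, and no treatment was given to either. The study concerns the part of IRS2 in brain metastases of colorectal cancer. The labels call the manipulated cells a knockdown in one field and write KO in another, and do not state how IRS2 was lowered or whether the cells are 1 clone. Replicates are named as biological but not tied to separately made lines, so p-values measure the spread between these libraries.

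The mitoribosome sits in the mitochondrial matrix and translates the few messenger RNAs that mitochondrial DNA still encodes, all for subunits of the respiratory chain and ATP synthase. Its proteins are all made from nuclear genes, translated in the cytosol and imported, and its ribosomal RNA comes from mitochondrial DNA. The small subunit binds the messenger RNA and decodes it, and the large subunit joins the amino acids and passes the nascent chain to the inner membrane. Many of the proteins descend from bacterial ones, and others were gained during the evolution of mitochondria.

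IRS2 (chromosome 13, 110405042 to 110438930, GRCh37) was read at 32.1, 34.6 and 31.8 normalized CPM in the control libraries and at 13.1, 12.4 and 12.1 in the knockdown libraries. Normalized CPM are CPM taken over the library total after TMM scaling. The groups did not overlap, and IRS2 was 2.62-fold lower in knockdown (log2 fold change -1.39 ± 0.07 SE, edgeR adjusted p = 3.12e-11). The controls totalled 11816973 to 12585013 counts and the knockdown libraries 14329348 to 18114656, so each knockdown library was deeper than each control library. Of the colon epithelial markers, KRT8, KRT18, KRT19, EPCAM and CDX2 were read well above 0, VIL1 at 4.29 normalized CPM in control, CDH17 below 1 and KRT20 at 0. Of these KRT19 was lower at -0.47 (edgeR adjusted p = 4.35e-08), a larger change than that of any of the 78 genes, EPCAM was lower at -0.21 (adjusted p = 0.00581) and CDX2 higher at 0.14 (adjusted p = 0.0148). Summed over all 8, the controls held 2503.8 to 2608.7 normalized CPM and the knockdown libraries 2382.4 to 2497.0. Fibroblast markers summed to between 8.85 and 27.3 in control and between 5.86 and 7.41 in knockdown. COL1A1 was lower in knockdown, at 15.2, 5.7 and 5.6 in control, where library 1 stood apart, and 4.29, 3.67 and 4.04 in knockdown. COL3A1 was lower too, with overlapping groups. The part of these marker changes in the results below was not tested. Leukocyte markers summed to 1.90 to 3.34 in control and 2.19 to 3.24 in knockdown, and endothelial markers to less than 1, with PECAM1 and CDH5 at 0.

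Promoter sequence is shown first because many of these genes hold 1 or both of a pair of short words near a start. RefSeq windows from 250 bases before to 50 after a start (GRCh38.p14) were found for 69 of the 78 genes, and a gene with several starts was counted once if any window held the word. The word of ETS family factors such as GABP, CCGGAAG on either strand, was present for 30 of the 69 (43.5%), against 22% of 10818 tested genes and 10.3% of all 35116 windows. The word of YY1, AAGATGGC on either strand, was present for 21 of the 69 (30.4%), against 6.25% of tested genes and 2.89% of windows. Of the 69, 43 (62.3%) had 1 or both words, against 26.6% of tested genes. In 8 genes both were present. An overlap in which the end of the ETS word is the beginning of the YY1 word was found in 0, and other overlaps were not searched. The NRF1 word GCATGCGC (either strand) was found for 6 of the 69 (8.70%, tested genes 6.38%) and the E-box CACGTG for 9 (13%, tested genes 12.6%). Windows were not found for MRPL2, MRPL10, MRPL13, MRPL15, MRPL21, MRPL23, MRPL35, MRPS28 and MRPS36. A match is a description of the letters and shows no binding.

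The stretches below, 30 bases each and read 5′ to 3′ on the gene's strand, belong to genes that were lower in knockdown, and the capitals mark the ETS or the YY1 word. They were picked from 14 lower genes, the 8 of the large and the 6 of the small subunit with the smallest p in their subunit, of which 9 have the ETS or the YY1 word and MRPL4, MRPL17, MRPL55, MRPS11 and MRPS25 have neither. The first base of the word shown lies 52 bases before the start in MRPL27, 6 before in MRPL16, 26 before in MRPL18 and 11 before in MRPS21. The windows of MRPL27 and MRPS21 hold the ETS word at 2 positions each, and the one farthest upstream is shown. Not shown are MRPS34, with 3 matches of which the first begins 71 bases before the start, and MRPS18C, with 1 that begins 222 before.
MRPL27 (ETS, chr17:50373218-50373247, minus strand): ccacgcagggcCCGGAAGtagatctcctga
MRPL16 (ETS, chr11:59810766-59810795, minus strand): agtgaacacaaCTTCCGGccccactgagcg
MRPL18 (ETS, chr6:159790430-159790459, plus strand): gggacttgctaCTTCCGGgtcggtggcgtc
MRPS33 (ETS, chr7:141014934-141014963, minus strand): agagggcgggcCTTCCGGgacgagggcgcg
MRPS21 (ETS, chr1:150293839-150293868, plus strand): cgtaatttccgCTTCCGGtagtgagaaccc
MRPL42 (YY1, chr12:93467511-93467540, plus strand): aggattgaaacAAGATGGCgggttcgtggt
MRPL49 (YY1, chr11:65122333-65122362, plus strand): cgtagcaggtaAAGATGGCagctaccatgt

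Set beside the expression calls given next, the ETS word was present in 15 of the 26 genes with a window that were lower in knockdown, in 15 of 39 without a call and in 0 of the 4 that were higher. The YY1 word was present in 5 of 26, 16 of 39 and 0 of 4 of the same classes. These shares were not tested, and the 4 higher genes are too few to read a difference from.

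Small decreases prevailed among the mitoribosomal genes in knockdown cells, with 4 exceptions that rose. At an edgeR adjusted p under 0.05 over all 13832 tested genes, 27 of the 78 were lower and 4 were higher in knockdown, and 47 were not called. Lower calls made up 34.6% of the members and higher calls 5.13%, against 19.2% and 19.3% of all tested genes. Of the 78 log2 fold changes 64 lay below 0, and their median was -0.08, where the median of all tested genes was -0.004. The decreases were small: the lower members fell by 8.7% to 25.6%, and the 4 higher ones rose by 9.1% to 18%. The median size of a called log2 change was 0.20 in the members and 0.29 over all called genes. The libraries of the groups did not overlap for 34 members (43.6%), 29 of them lower and 5 higher, against 47.6% of all tested genes. In bulk RNA, fewer cells with a transcript and less of it per cell cannot be told apart.

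**Figure D1:**
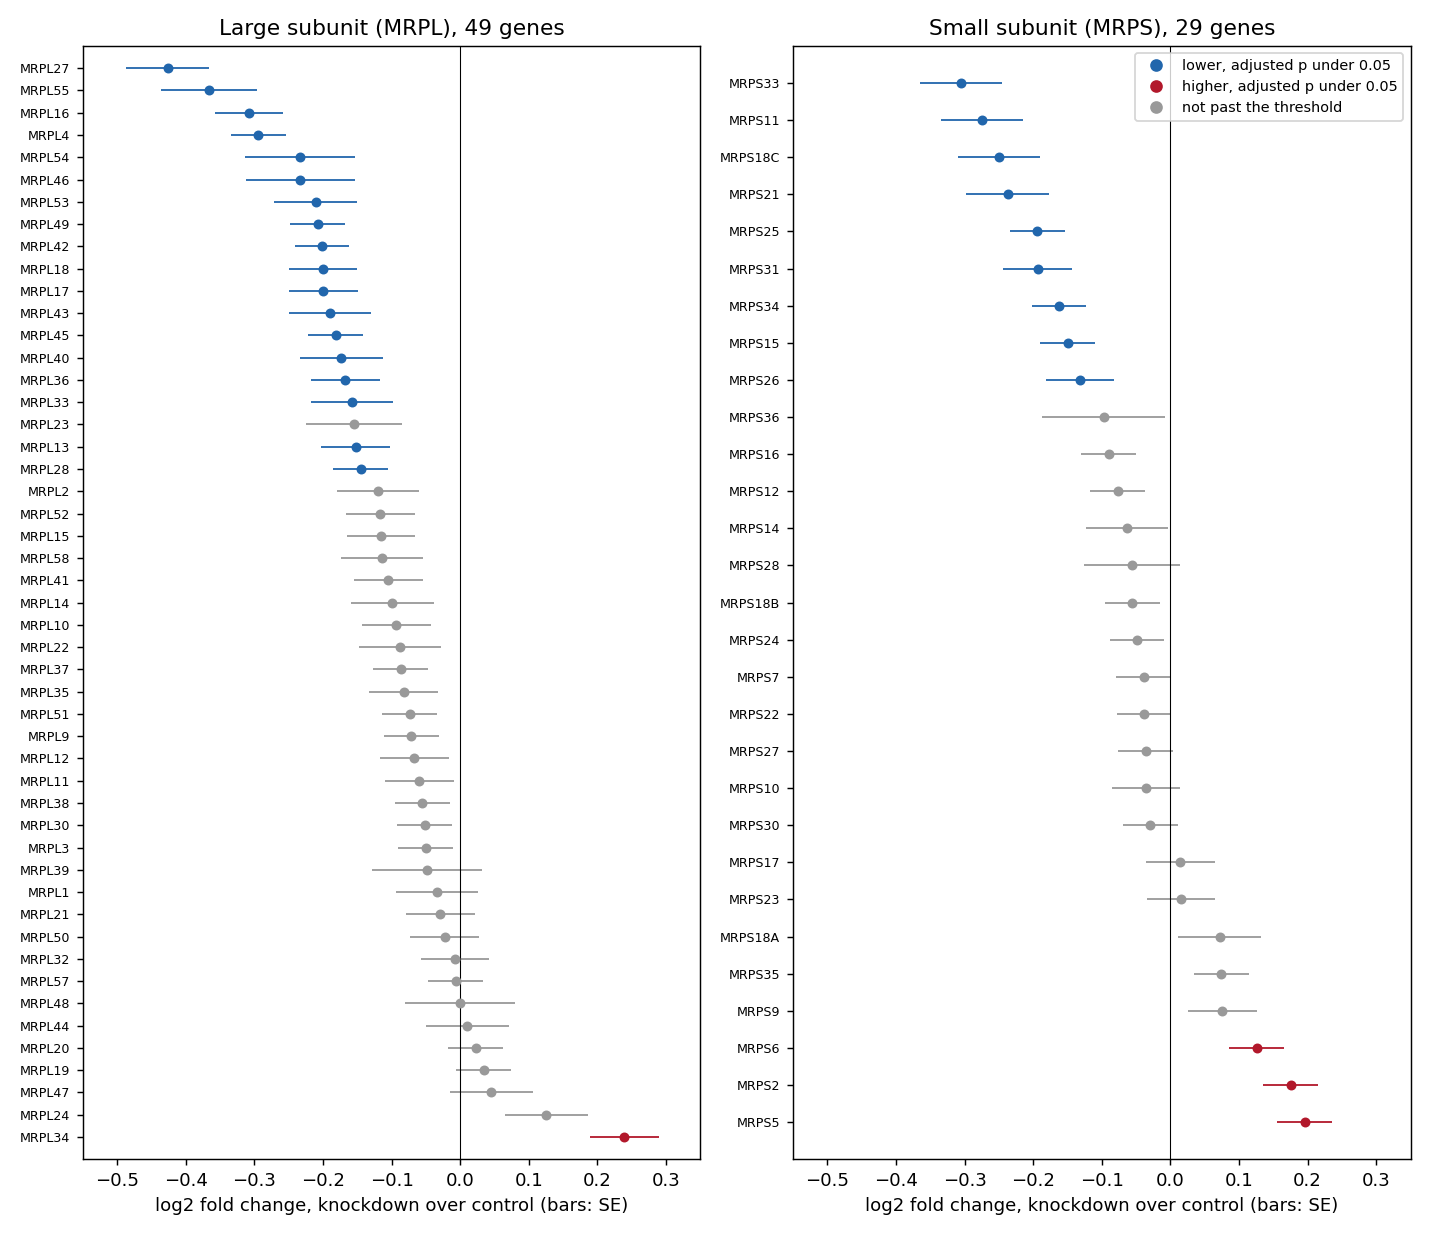
Log2 fold change of knockdown over control (x axis) for each of the 49 large-subunit genes (left) and 29 small-subunit genes (right), ordered by value, with bars of 1 SE. Blue points are lower and red points higher at an adjusted p under 0.05, and grey points were not called; MRPL27 lies lowest at -0.43 and MRPL34 highest at 0.24.

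The large subunit had 18 lower genes of 49 (36.7%) and 1 higher (2.04%), with 43 of 49 log2 fold changes below 0 and a median of -0.10. The small subunit had 9 lower genes of 29 (31.0%) and 3 higher (10.3%), with 21 of 29 below 0 and a median of -0.06. The 30 uncalled large-subunit genes ranged from -0.15 to 0.13 and 25 of them lay below 0. The 17 uncalled small-subunit genes ranged from -0.10 to 0.08 and 12 lay below 0. Whether the subunits differ from each other was not tested. MRPS30 and MRPS18A, named for the small subunit, sit in the large subunit by structure, and neither was called (log2 fold changes -0.03 and 0.07).

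Summed over genes, the large subunit took 0.347%, 0.344% and 0.335% of all counts in the control libraries and 0.306%, 0.310% and 0.323% in the knockdown libraries. The small subunit took 0.226%, 0.222% and 0.219% in control and 0.210%, 0.212% and 0.218% in knockdown. As shares of counts, both sums were lower in every knockdown library than in every control library, by little in the third knockdown library. In normalized CPM the large-subunit sum still did not overlap (3304.9 to 3429.8 in control, 3085.9 to 3281.0 in knockdown), while the small-subunit sum did (2162.1 to 2237.8 and 2116.8 to 2214.3). The ratio of the large to the small sum was 1.53, 1.55 and 1.53 in control and 1.46, 1.46 and 1.48 in knockdown, without overlap. The median large-subunit gene deviated from the control mean by -0.146, -0.124 and -0.046 (log2) in knockdown libraries 1 to 3, and the median small-subunit gene by -0.090, -0.072 and -0.029. Knockdown library 3, the deepest of the 6, lay nearest to the controls, of which library 3 deviated by -0.037 and -0.023. Without knockdown replicate 3, 34 members were lower in place of 27, with 18.6% of all tested genes lower in place of 19.2%. After thinning all libraries to the depth of the smallest, 24 were lower, 23 of them among the 27. Of all tested genes 18.1% were lower after thinning.

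**Figure D2:**
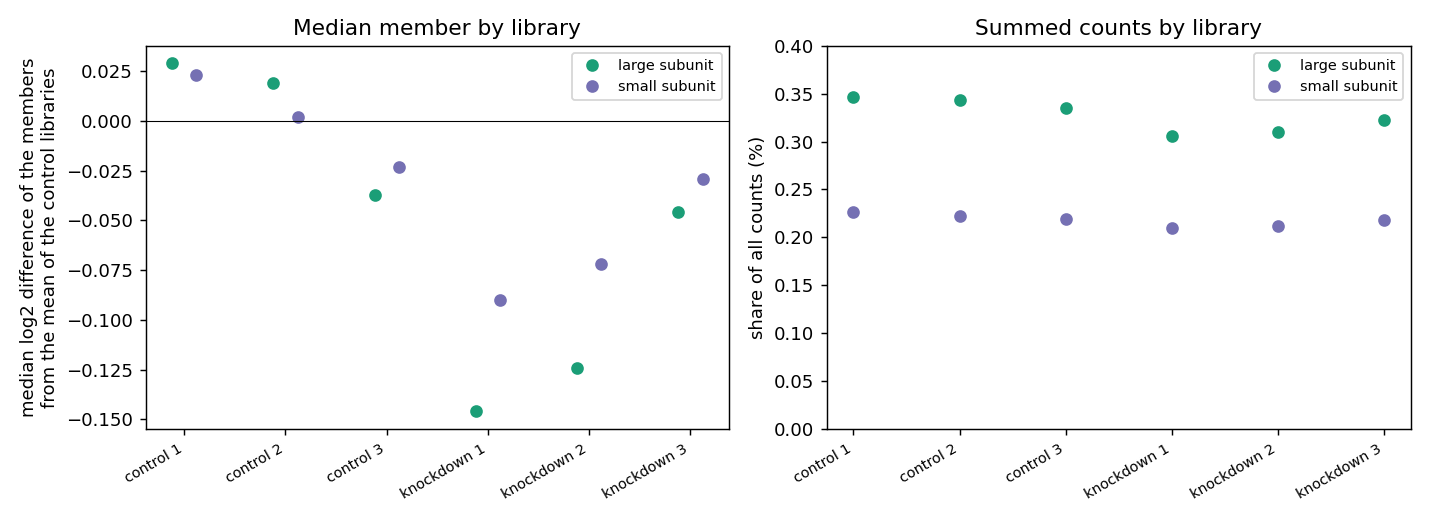
Left, the median over the genes of each subunit of the log2 difference from the mean of the control libraries, for each of the 6 libraries; right, the share of all counts (in %) of each subunit's summed genes, with the axis from 0. Green points are the large and violet points the small subunit; knockdown libraries 1 and 2 lie lowest, and knockdown library 3 at -0.046 and -0.029 lies close to control library 3.

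Among large-subunit genes with bacterial counterparts, MRPL27 (chromosome 17, 48445218 to 48450568, GRCh37), whose bacterial counterpart reaches towards the site of peptide bond formation, had the lowest log2 fold change of all 78. It was read at 49.5, 46.6 and 44 normalized CPM in control and at 35.4, 32.7 and 36.3 in knockdown libraries. No knockdown library reached the lowest control, and the log2 fold change was -0.43 ± 0.06 (edgeR adjusted p = 1.19e-05). MRPL4 (chromosome 19, 10362577 to 10370731), whose bacterial counterpart lines the exit tunnel, was read at 111.0, 111.9 and 105.2 in control and at 84.7, 90.2 and 92.5 in knockdown. Here too the groups were apart (-0.29 ± 0.04, adjusted p = 2.28e-05). MRPL16 (chromosome 11, 59573613 to 59578251), related to a bacterial protein at the tRNA binding sites, was read at 56.5, 54.1 and 52.2 in control and 42.8, 43.7 and 45.0 in knockdown. The knockdown libraries all lay below the controls (-0.31 ± 0.05, adjusted p = 7.03e-05).

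Further lower genes of this kind were MRPL18 and MRPL17. MRPL18, a relative of the bacterial protein that binds 5S ribosomal RNA, was read at 88.1, 85.4 and 81.1 in control and at 69.5, 75.5 and 76.3 normalized CPM in knockdown libraries. Its log2 fold change was -0.20 ± 0.05 (adjusted p = 0.00228), with no overlap. MRPL17, placed near the tunnel exit, was read at 78.5, 72.2 and 71.6 in control and at 64.4, 63.3 and 65.9 in knockdown (-0.20 ± 0.05, adjusted p = 0.00214), also with no overlap.

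Genes of the large subunit without a bacterial number were lower too. MRPL55 (chromosome 1, 228294380 to 228297013), a protein found in animal mitoribosomes, was read at 28.5, 27.3 and 27.9 normalized CPM in control and 22.9, 20.5 and 21.7 in knockdown libraries. The groups lay apart by more than their SDs of 0.564 and 1.23 (-0.37 ± 0.07, adjusted p = 0.000223). MRPL49 was read at 95.9, 95.9 and 92.1 in control and at 77.5, 82.2 and 85.8 in knockdown (-0.21 ± 0.04, adjusted p = 0.000991). MRPL42 was read at 93.4, 95.5 and 92.1 in control and at 81.2, 77.9 and 85.2 in knockdown (-0.20 ± 0.04, adjusted p = 0.00105). In both, every knockdown library lay below every control library. Of the genes with numbers up to MRPL36, which bacteria also use, 9 of 28 were lower (32.1%) and 1 was higher (3.57%), with a median of -0.09. Of those with higher numbers 9 of 21 were lower (42.9%) and 0 higher (median -0.11). Over all tested genes 19.2% were lower and 19.3% higher, and the difference between these classes was not tested.

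By place on the large subunit, the central protuberance contacts the small subunit and carries a structural RNA. Differences between places were not tested. Lower genes there were 5 of 8 (62.5%), against 19.2% of all tested genes. They were MRPL27, MRPL18, MRPL46 (-0.23), MRPL40 (-0.17) and MRPL33 (-0.16), and MRPL35 at -0.08, MRPL38 at -0.05 and MRPL48 (21.8 normalized CPM in control and 21.7 in knockdown) were not called. The median of the 8 was -0.17. The lower call of MRPL46 came with overlapping groups, since control library 3 at 27.2 normalized CPM lay below knockdown libraries 1 and 3 at 28.2 and 27.4. With length and GC content of the transcripts corrected for, 3 of the 8 were lower, and so were 20.2% of all tested genes. The median of the 8 was then -0.11, with MRPL40 (edgeR adjusted p = 0.0636) and MRPL33 (adjusted p = 0.203) no longer called.

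Around the exit tunnel and the membrane contact, 2 of 7 genes were lower (28.6%, against 19.2% of all tested genes). They were MRPL17 and MRPL45 (-0.18 ± 0.04, adjusted p = 0.00287), the protein that anchors the ribosome to the inner membrane, read at 66.5, 64.3 and 64.7 in control and at 57.4, 57.1 and 57.9 normalized CPM in knockdown libraries. The other 5 had log2 fold changes of -0.15 (MRPL23), -0.09 (MRPL22), 0.01 (MRPL44), 0.05 (MRPL47) and 0.13 (MRPL24). Of the stalk that recruits translation factors, 0 of 3 genes were called by edgeR: MRPL10 was at -0.09, MRPL12 at -0.07 and MRPL11 at -0.06, with adjusted p-values of 0.167 to 0.357. The other lower large-subunit genes ran from MRPL54 at -0.23 to MRPL28 at -0.15, with MRPL53, MRPL43, MRPL36 and MRPL13 between them.

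In the small subunit, MRPS33 (chromosome 7, 140702410 to 140715028), a protein of the head, was lowest. It was read at 31.1, 33.3 and 33.4 normalized CPM in control and at 26.4, 26.5 and 26.2 in knockdown libraries, so that the knockdown libraries lay close together and below all controls (-0.30 ± 0.06, adjusted p = 0.000454). MRPS25 was read at 85.1, 82.0 and 81.1 in control and at 72.2, 72.4 and 72.4 in knockdown, with a log2 fold change of -0.19 ± 0.04 (adjusted p = 0.00099). MRPS11 (chromosome 15, 89010684 to 89024007), whose bacterial counterpart belongs to the platform that faces the messenger RNA exit, was read at 44.7, 41.0 and 40.9 in control and 32.0, 35.3 and 37.1 in knockdown. Its change was -0.27 ± 0.06 (adjusted p = 0.00157), and the groups of both genes were apart.

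MRPS34, in which inherited variants cause a defect of mitochondrial translation, was read at 159.9, 147.6 and 148.9 normalized CPM in control and at 132.8, 135.7 and 139.2 in knockdown libraries (-0.16 ± 0.04, adjusted p = 0.00248). MRPS21, related to a bacterial protein of the platform, was read at 35.9, 34.0 and 33.2 in control and at 29.3, 29.5 and 28.8 in knockdown (-0.24 ± 0.06, adjusted p = 0.00309). In both genes the groups were apart. MRPS18C, 1 of 3 human relatives of a single bacterial protein, was read at 43.8, 45.8 and 39.5 in control and at 34.7, 37.3 and 36.4 in knockdown (-0.25 ± 0.06, adjusted p = 0.00252). Its relatives MRPS18A at 0.07 and MRPS18B at -0.06 were not called, and the difference between the 3 was not tested. MRPS31 (-0.19), MRPS15 (-0.15) and MRPS26 (-0.13) were the other lower small-subunit genes.

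**Figure D3:**
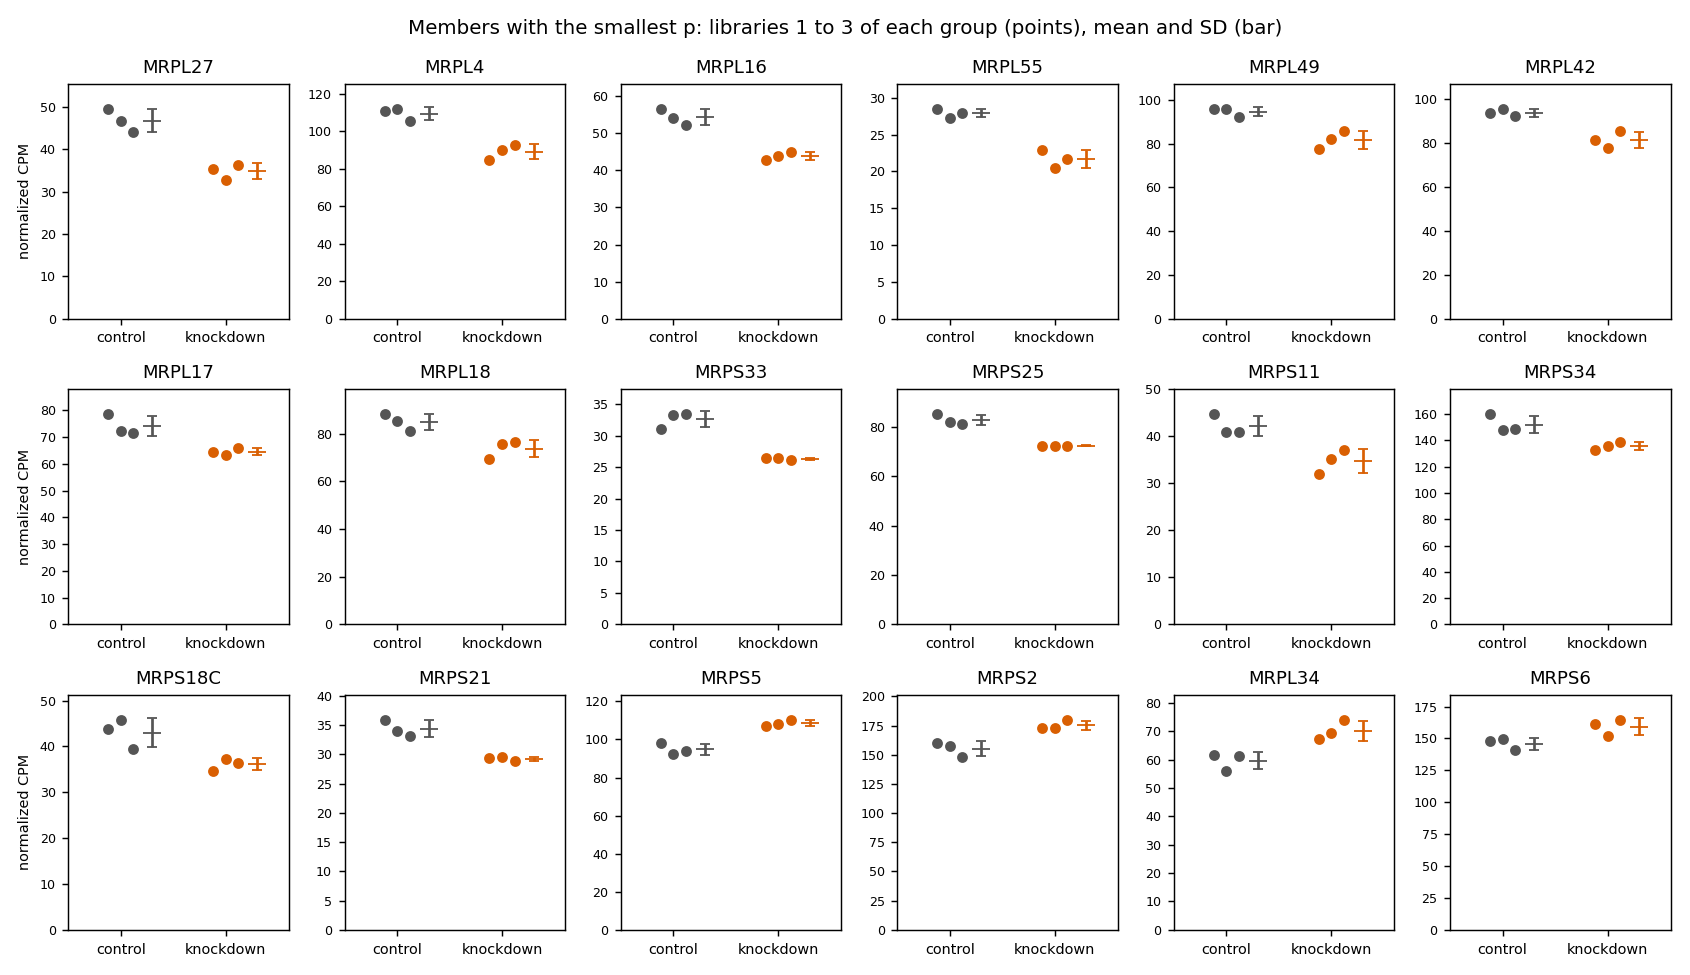
Normalized CPM (y axis, from 0) of 18 genes in each control (grey) and knockdown (orange) library, with the mean and SD of each group beside the points. The first 14 panels hold the lower genes with the smallest p in each subunit, 8 of the large (MRPL27 to MRPL18) and 6 of the small (MRPS33 to MRPS21), and the last 4 the higher genes; in all 18 the libraries of the groups do not overlap.

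Against this, 3 small-subunit genes and 1 large-subunit gene rose. MRPS5 (chromosome 2, 95751114 to 95787751), whose bacterial counterpart lies at the messenger RNA entrance, was read at 98.1, 92.3 and 94.1 normalized CPM in control and at 107.0, 108.3 and 110.3 in knockdown libraries. The difference was 0.20 ± 0.04 (adjusted p = 0.000596). MRPS2 (chromosome 9, 138391830 to 138396519) was read at 160.2, 157.5 and 148.2 in control and at 173.2, 172.8 and 179.9 in knockdown (0.18 ± 0.04, adjusted p = 0.000899). For both genes each knockdown library lay above each control library. MRPL34 (chromosome 19, 17403418 to 17417652) was read at 61.6, 56.1 and 61.1 in control and at 67.1, 69.5 and 74.0 in knockdown. Its change of 0.24 ± 0.05 (adjusted p = 0.000974) was the only rise called in the large subunit.

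MRPS6 (chromosome 21, 35445524 to 35515334), a platform protein, was read at 148.0, 149.4 and 140.6 normalized CPM in control and at 161.2, 152.3 and 164.6 in knockdown libraries. It rose by 0.13 ± 0.04 (adjusted p = 0.0145), and this call was lost without control replicate 3, without knockdown replicate 3 and with scaling to library size alone. The 3 higher small-subunit genes all have numbers up to 21 that bacteria also use. Among those 16 genes, with a median of -0.05, 3 were higher (18.8%) and 4 lower (25%). Of all tested genes 19.3% were higher and 19.2% lower. Among the 13 with higher numbers 5 were lower (38.5%) and 0 higher (median -0.06). The difference between these classes was not tested. In the head of the small subunit 2 of 8 were lower (25%, against 19.2% of all tested genes), MRPS33 and MRPS31. MRPS35 at 0.07 and MRPS9 at 0.08 were uncalled but passed the threshold as higher after the length and GC correction. With that correction 21.7% of all tested genes were higher.

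Subunits that carry other symbols were read as well. PTCD3, which lies at the messenger RNA entrance of the small subunit, rose from 166.0, 166.8 and 167.3 normalized CPM in control to 190.7, 195.1 and 193.6 in knockdown libraries (0.21 ± 0.03, edgeR adjusted p = 3.51e-05). The knockdown libraries were all above the controls. The other 6 of this list of 7 were not called: DAP3, a GTP-binding subunit, at 0.09, CHCHD1 at -0.08, AURKAIP1 at -0.02, GADD45GIP1 at -0.03, MRPL58, derived from a peptide release factor, at -0.11 and MRPL57 at -0.01. The last 2 also belong to the 78.

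Levels per length differed far more between genes than between groups. On the scale of control CPM per kb of canonical transcript, the large-subunit genes ran from 6.02 for MRPL42 to 193 for MRPL51, with a median of 46.0. The small-subunit genes ran from 7.75 for MRPS33 to 169 for MRPS24, with a median of 33.1. After MRPS24 came MRPS6 at 157 and MRPS34 at 152 CPM per kb. MRPL51 and MRPS24, the most abundant genes per length of their subunits, were not called, at -0.07 and -0.05 for their log2 fold changes. These levels rest on the length of 1 annotated transcript: that of MRPL42 is 15557 bases, where the median member has 1242, so its level would be higher with a shorter transcript. Across the 78 genes, Spearman's rho of the log2 fold change was 0.31 with the mean normalized CPM of the same 6 libraries, not divided by length. It was 0.15 with transcript length and -0.21 with GC content, as a description.

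**Figure D4:**
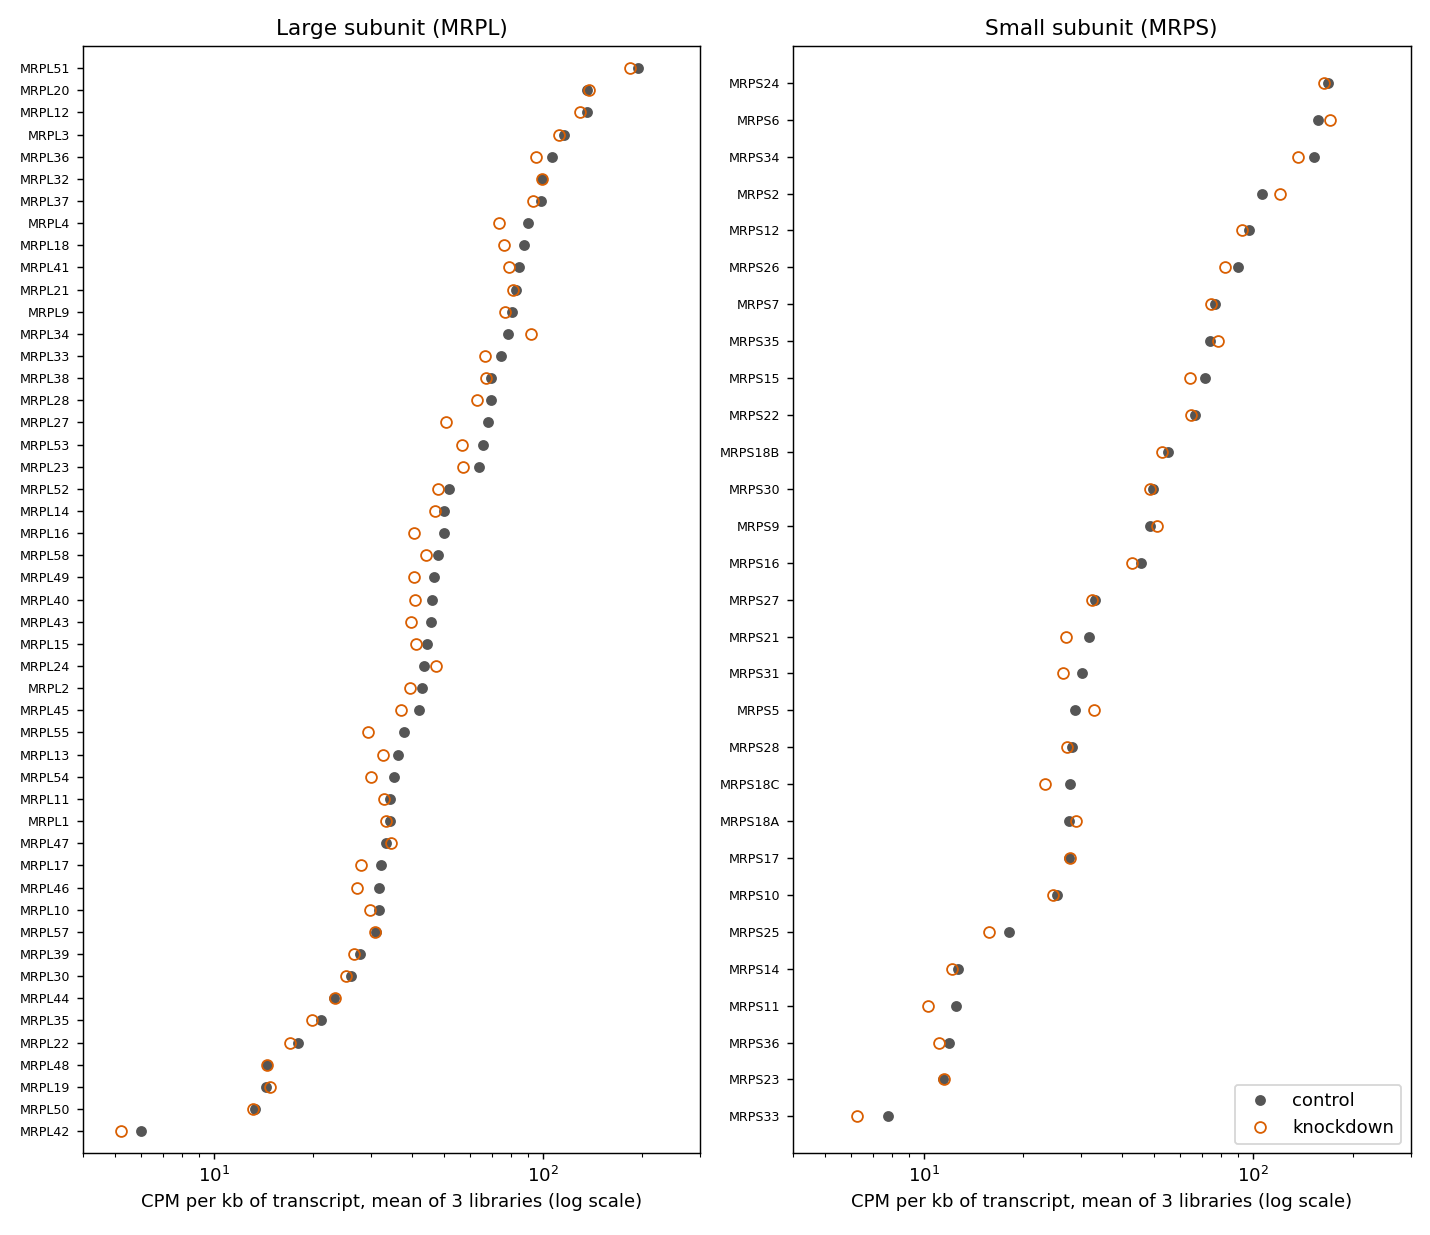
Level of each gene as CPM per kb of canonical transcript (x axis, log scale, mean of 3 libraries), in control (filled grey) and knockdown (open orange), for the large subunit (left) and the small subunit (right), ordered by the control level. The control levels run from 6.02 to 193 in the large and from 7.75 to 169 in the small subunit, and the distance between the points of a gene is small beside that range.

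Among the genes that build and serve the mitoribosome, calls were no more frequent than over all tested genes (19.2% lower, 19.3% higher). Of 27 assembly factors 4 were lower (14.8%) and 2 higher (7.41%). RCC1L, a factor for mitoribosome assembly, fell from 171.0, 172.2 and 163.8 normalized CPM in control to 106.7, 110.3 and 111.5 in knockdown libraries (-0.63, adjusted p = 1.88e-10), a larger change than that of any of the 78 genes. NGRN, which is needed for the RNA of the large subunit, was lower at -0.23 (adjusted p = 0.000128), and so was MRM2, a methyltransferase for that RNA, at -0.17 (adjusted p = 0.00606). Of 14 translation factors TSFM (-0.19, adjusted p = 0.0136) and GFM1 (-0.14, adjusted p = 0.0200), both for elongation, were lower (14.3%) and 0 were higher. Of 17 mitochondrial aminoacyl-tRNA synthetases 3 were lower (17.6%), TARS2 (-0.30, adjusted p = 7.45e-05), WARS2 (-0.38, adjusted p = 0.00279) and YARS2 (-0.15, adjusted p = 0.0221), and 1, SARS2, was higher (5.88%).

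Of 10 listed regulators of nuclear genes for mitochondria 9 were tested. Higher calls were 3 (33.3%, against 19.3% of all tested genes), lower calls 0, and 6 were not called. MYC rose from 310.5, 308.7 and 301.5 normalized CPM in control to 360.5, 365.7 and 380.4 in knockdown libraries (0.27, adjusted p = 1.84e-06). PPRC1 (0.14, adjusted p = 0.00429) and ESRRA (0.13, adjusted p = 0.0455) were the other 2. GABPA, NRF1 and YY1, whose words were searched in the promoters, had adjusted p-values of 0.618, 0.906 and 0.834. PPARGC1A did not pass the filter and was not tested, with 7, 6 and 9 counts in control and 2, 1 and 4 in knockdown.

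Of the 13 messenger RNAs that mitochondrial DNA encodes, the templates of the mitoribosome, 6 were higher (46.2%, against 19.3% of all tested genes). None was lower and 7 were not called. Of the 13 log2 fold changes 4 lay below 0, and their median was 0.04. COX1 rose from 14067.5, 14032.5 and 13694.3 normalized CPM in control to 16094.1, 16341.8 and 15973.3 in knockdown libraries (0.21, adjusted p = 2.27e-07). COX2 at 0.24 (adjusted p = 3.54e-06) and ND4L at 0.22 (adjusted p = 1.67e-05) were higher too. Of the cytosolic ribosomal proteins, the other set of ribosomal proteins in the cell, 41 of 82 tested were lower and 1 was higher, with a median of -0.09. The symbol rule also took in 3 tested pseudogenes, RPL23P8, RPL13P5 and RPL32P3, none of them called and left out here. The lower share, 50%, stands beside 34.6% for the mitoribosomal genes and 19.2% for all tested genes, and the difference between these sets was not tested.

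Reads of neighbouring genes may enter some of these values, since the strand setting of the counting is not stated. By their GRCh37 positions 32 of the 78 genes overlap another gene of the count table, 27 of them one on the opposite strand. Genes outside the count table were not searched. MRPS18C overlaps ABRAXAS1, which rose from 12.2 to 16.9 normalized CPM (0.47, adjusted p = 0.000199) while MRPS18C fell. MRPL34 lies within the span of ABHD8 (6.64 in control and 6.39 in knockdown, adjusted p = 0.753), and MRPS6 shares its locus with SLC5A3 (166.8 and 165.8, adjusted p = 0.889). The pseudogene MRPS31P5 rose from 14.8 to 18.7 (0.34, adjusted p = 0.00345) while MRPS31 fell, and reads of the pair may be split between them. MRPS36, which is now known as a part of the α-ketoglutarate dehydrogenase complex and was taken here by its symbol alone, was not called at -0.10.

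Of the 31 calls, 17 stood in all 17 alternative fits, among them those of MRPL27, MRPL4, MRPL16, MRPL34, MRPS33, MRPS2 and MRPS5. The other 14 were lost in at least 1 fit: MRPL13, MRPL28, MRPL33, MRPL36, MRPL40, MRPL43, MRPL46, MRPL53, MRPL54, MRPS6, MRPS15, MRPS21, MRPS26 and MRPS31. Of the large subunit 11 genes were lower without control replicate 2 and 11 without knockdown replicate 2, in place of 18. In these 2 fits 15.2% and 15.4% of all tested genes were lower. The Wald test of DESeq2 called 14 of the 78 lower, all among the 27, and the same 4 higher. Over all genes it tested, it called 10.8% lower and 12.7% higher, where the main fit called 19.2% and 19.3%.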

How the data were processed

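RNA-seq of SW403 cells was analysed from whole-number read counts per gene symbol, deposited by the authors for 6 libraries. Per the submitters' processing notes, STAR 2.6.1a, Salmon, DESeq2 and the build hg19 were named, without roles, and the strand setting is not given in the sources used here. A second deposited table, of normalized values, was not used, and 0 count columns were left out. Libraries of 11816973 to 18114656 counts gave each member at least 184 counts.

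Counts were tested with edgeR 4.0.16 in R 4.3.3 (TMM, filterByExpr, quasi-likelihood F-test, group only) on 13832 genes, with Benjamini-Hochberg adjustment over all of them and a threshold of 0.05. With 3 libraries a group an exact permutation test cannot go below 0.1. SE is the log2 fold change over the square root of F. Length, GC content and loci came from GENCODE version 44 lifted to GRCh37, and 96.3% of tested genes had a length.

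The members and lists were chosen with earlier results of these data known. The lists were position on the ribosome, subunits under other symbols, assembly factors, translation factors, aminoacyl-tRNA synthetases, regulators, mitochondrially encoded RNAs, cytosolic ribosomal proteins (pseudogenes left out after the data were seen) and cell type markers. Named genes were IRS2, all higher members, the 8 large- and 6 small-subunit lower members with the smallest p, position and other-symbol lists, the most abundant per length and the 3 smallest p of other lists. Others (overlapping genes, further called members, MRPS18 relatives, MRPS36, SARS2 and the promoter-word factors) were chosen after their values were seen. Alternatives were 3 other scalings, 2 filters, DESeq2 1.42.0, limma 3.58.1 voom, thinning, a replicate block, a length and GC correction, a threshold of 0.01, and leaving out each library. The test was checked on simulated data.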

Additional observations from a re-analysis of the deposited data

How the results depend on the processing

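All alternatives kept IRS2 lower, at -1.42 to -1.35. Of 1343 values of 79 other named genes over 17 alternative fits, 1206 kept their direction and side of the threshold, 88 lost and 18 gained a call, and 31 changed sign. Where a count or median moved, the cause was not tested. With the Wald test of DESeq2, 9 large- and 5 small-subunit members were lower, and 3599 genes were called in all. At an adjusted p under 0.01, 10 large-subunit members were lower, and 3714 genes were called in all. With library size alone the small-subunit median was -0.09 and that of all genes -0.03. With the length and GC correction 5 small-subunit members were higher, and so were 21.7% of all tested genes. In that fit 9 small-subunit members were lower, and so were 20.2% of all tested genes. The small-subunit median was then -0.03 in place of -0.06, and the large-subunit median -0.09 in place of -0.10. Leaving out 1 library at a time gave 11 to 24 lower and 1 higher large-subunit members, 6 to 10 lower and 2 to 3 higher small-subunit members, medians of -0.13 to -0.08 and -0.06 to -0.04, and 4319 to 5256 calls over all genes.

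Libraries with the same replicate number in the groups showed little common deviation (correlations of deviations 0.04, -0.01 and -0.10). Such values cannot show whether these libraries were prepared together. With a replicate block 17 large- and 8 small-subunit members were lower, 1 and 3 higher, and 4862 genes were called in all.

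The sign changes were all of genes without a call. AURKAIP1 was at 0.01 with the length and GC correction, also with the block, and ran from -0.05 to 0.02 with 1 library left out. MRPL57 was at 0.00461 without the filter, 0.00135 with the Wald test, 0.01 after thinning or without control replicate 2 and 0.02 without knockdown replicate 2. MRPL44 was at -0.01 with upper-quartile factors, -0.02 with library size, -0.00252 with a mean of at least 50 counts, -0.01 after thinning or without control replicate 1 and -0.04 without knockdown replicate 3. MRPL47 ran from -0.02 to 0.08 with 1 library left out. MRPL48 was at 0.00125 with DESeq2 size factors, 0.01 without the filter, 0.00474 with the Wald test, 0.02 after thinning, 0.02 and 0.01 with the length and GC correction without and with the block, and ran from -0.07 to 0.07 with 1 library left out. ABHD8 was at 0.03 after thinning. SLC5A3 was at 0.04 with the length and GC correction, also with the block, 0.00432 without control replicate 2, 0.02 without control replicate 3 and 0.06 without knockdown replicate 3.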
